A study of Mus musculus with 4 samples.

Results

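The immunity-related GTPases of the IRG family were examined in J774.1 cells, a mouse monocyte-macrophage line, after exposure to proteasome inhibitors. The family was represented by 10 genes, *Irgm1*, *Irgm2*, *Igtp*, *Ifi47*, *Tgtp1*, *Tgtp2*, *Iigp1*, *Gm4951*, *Gm4841* and *F830016B08Rik*, of 20144 genes that a probe of the array could be assigned to. They were taken by name, and the family was selected on its measured increases against DMSO, because 3 neighboring members stood among the 5 genes with the largest increases. The differences from DMSO are therefore given as a description. Cells received MG132, epoxomicin or ONX0914 at 1 μM, or the solvent DMSO, for 4 hours, and total RNA of each condition went to 1 single-color array, so that 4 arrays on 1 slide made up the study and no spread between cultures could be measured. MG132 is named in the labels as a proteasome inhibitor, epoxomicin as an inhibitor of the 20S proteasome and ONX0914 as an inhibitor of the β5 and β5i subunits, the latter belonging to the immunoproteasome. The treatment label of the ONX0914 array reads ONX-0912, and its identity was taken from the protocol and the paper. A macrophage-like line growing alone stands for 1 cell type without the lymphocytes that supply interferon-γ in tissue. No strain, sex or passage of the line was stated. Of 9 macrophage markers with a probe, 8 were well above background on every array and *Mrc1* on none. *Cd3e* and *Cd4* were well above background on every array, whereas *Cd3d*, *Cd3g*, *Cd8a*, all 3 B cell markers and both NK cell markers were so on none. Of the fibroblast markers, *Col1a2* was detected faintly on every array (61.2 to 85.6), *Pdgfra* on some and *Col1a1* on none. Of the epithelial markers, *Epcam* and *Cdh1* were detected on none, and *Krt18* with epoxomicin alone (33.7).

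IRG proteins are GTPases that interferons, above all interferon-γ, switch on in mouse cells, where they defend against parasites and bacteria living inside vacuoles. The effector class, called GKS after a motif in its GTP-binding site, collects on the vacuole membrane and breaks it open. The regulator class, called GMS, sits on the cell's own membranes and keeps the effectors inactive there. *Irgm1*, *Irgm2* and *Igtp* (also known as *Irgm3*) encode the GMS regulators. *Iigp1* (Irga6), *Ifi47* (Irgd), *Tgtp1* and *Tgtp2* (both Irgb6) encode GKS effectors, and *Gm4951*, *Gm4841* and *F830016B08Rik*, listed in the mouse RefSeq table as Ifgga2, Ifgga3 and Ifgga4, were grouped with them. Transcription of interferon-induced genes is driven through GAS and ISRE elements in their promoters, the latter bound by factors of the IRF family. *Tgtp1* and *Tgtp2* are near-identical copies, so a probe of either may bind the transcripts of both.

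From the RefSeq promoter table (GRCm38.p6), the promoters of 6 of the 10 members were examined. *Gm4951*, *Gm4841*, *F830016B08Rik* and *Iigp1* were left out of these member counts, so nothing is said of their promoters. Of each promoter, 300 bases, from 250 before to 50 after the start of the gene, were searched. A core GAS letter pattern, TTCNNNGAA, which reads the same on both strands, was present in 4 of these 6 promoters and in 8.3% of the 32851 promoters in the table. A core ISRE pattern, GAAA-NN-GAAA, searched on both strands, was present in 5 of the 6 and in 3.44% of all promoters. The pattern was absent from this window of *Ifi47*. The windows around the ISRE pattern are shown because 4 of them carry both elements at the same spacing. Capitals mark every base of a GAS or ISRE match, and each window has 60 bases on the strand of its gene.
Igtp (chr11:58199492-58199551, plus strand): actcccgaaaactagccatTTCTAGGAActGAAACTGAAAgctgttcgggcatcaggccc
Irgm2 (chr11:58214883-58214942, plus strand): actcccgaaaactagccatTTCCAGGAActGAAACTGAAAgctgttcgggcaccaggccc
Tgtp1 (chr11:48992294-48992353, minus strand): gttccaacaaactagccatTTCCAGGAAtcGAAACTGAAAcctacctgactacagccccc
Tgtp2 (chr11:49064253-49064312, minus strand): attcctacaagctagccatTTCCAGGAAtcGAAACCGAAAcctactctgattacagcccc
Irgm1 (chr11:48871415-48871474, minus strand): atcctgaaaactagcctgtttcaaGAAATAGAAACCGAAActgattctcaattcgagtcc

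In *Igtp*, *Irgm2*, *Tgtp1* and *Tgtp2*, the GAS pattern ended 2 bases before the ISRE pattern, which began 34, 64, 77 and 70 bases before the start of the gene. The joined pattern TTC-NNN-GAA-NN-GAAA-NN-GAAA was written down after these sequences had been seen, and both strands were then searched. It was found in 5 of the 32851 promoters (0.0152%), and all 5 belonged to genes of the family, since *Gm12185*, a further IRG gene, was the other one. *Irgm1* carried 2 overlapping ISRE matches and no GAS match. Aligned at the ISRE without gaps, the windows of *Igtp* and *Irgm2* were identical at 58 of 60 bases (96.7%) and those of *Tgtp1* and *Tgtp2* at 46 (76.7%). The *Irgm1* window shared between 29 and 36 of the 60 bases with each of the others. A match describes letters in the reference genome, and binding at these places was not measured.

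Each array held 43020 spots that were not controls, of which 60.3% to 63.1% were well above background and 0 were saturated. The members were found on 13 probes, and each probe was well above background on all 4 arrays. Values given here are processed signals, the brightness of a spot after the scanner software had subtracted the background, with the software's own error of the spot. For comparisons, log2 signals were taken relative to the 75th percentile of the array, and the differences carry a standard error derived from those spot errors. That error covers the measurement of 1 RNA sample and leaves out the difference between cultures. In total RNA of a culture, more transcript per cell and more expressing cells cannot be told apart.

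All 10 members were higher with each inhibitor than with DMSO, and for every member the order of the signals relative to the array was epoxomicin, MG132, ONX0914 and DMSO from high to low. The median difference of the 10 was 3.63 on the log2 scale with MG132 (12.4-fold), 4.06 with epoxomicin (16.7-fold) and 2.94 with ONX0914 (7.67-fold). The medians over all genes compared were -0.02, -0.04 and -0.01. All 10 members exceeded a 2-fold difference with each inhibitor, where 7.25% of 13773 genes did so with MG132, 8.41% of 13877 with epoxomicin and 3.27% of 13794 with ONX0914. With all 3 inhibitors, 2.02% of 13460 genes were at least 2-fold higher. Since the family was selected on these contrasts, nothing is read from that gap. Ranked by the smallest of the 3 differences, *Gm4841*, *F830016B08Rik* and *Gm4951* came 1, 4 and 5, and the remaining members lay between 18 (*Tgtp2*) and 91 (*Ifi47*) among 12739 genes measured on all arrays.

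**Figure D1:**
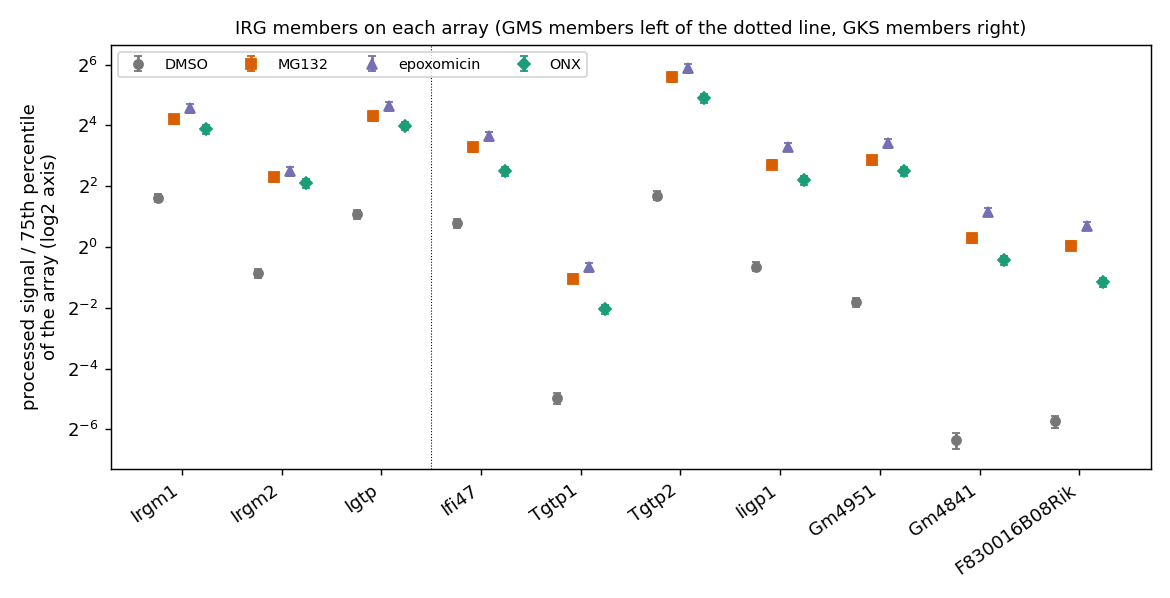
Signal of each IRG member on the 4 arrays, divided by the 75th percentile of its array and drawn on a log2 axis. Points are single arrays (for *Igtp*, the mean of its spots), bars are the scanner software's error, and the dotted line parts the 3 GMS members from the 7 GKS members. DMSO is lowest and epoxomicin highest for every member, and heights of different genes are not comparable because each comes from its own probe.

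Among the GMS regulators, *Irgm1*, whose product also takes part in autophagy, gave 5076 ± 508 under DMSO. Its signal was 26658 ± 2666 under MG132, 40037 ± 4004 under epoxomicin and 23774 ± 2377 under ONX0914. It was 5.98-fold higher with MG132, 7.75-fold with epoxomicin and 4.80-fold with ONX0914, the smallest differences of the class. A second *Irgm1* probe gave 6.23-fold, 8.12-fold and 5.48-fold. The log2 differences of the 2 probes lay within 0.19 of each other. *Irgm2* had signals of 905 ± 90.5, 7155 ± 715.5, 9481 ± 948 and 6864 ± 686 in the same order, which made it 9.0-fold, 10.3-fold and 7.78-fold higher. Its values with the 3 inhibitors were the closest to each other of any member.

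*Igtp* was the best measured member, because its probe was printed 10 times on each array. Under DMSO the spots averaged 3481.5 ± 169.7 (SD, n = 9 spots). They averaged 28837 ± 1052 under MG132 (n = 8), 41948 ± 1949 under epoxomicin (n = 10) and 25530.2 ± 1244 under ONX0914 (n = 10). Compared with DMSO, it was 9.43-fold, 11.8-fold and 7.52-fold higher. Spot by spot, the log2 difference was 3.24 ± 0.03 with MG132 (SD, n = 8 spots), 3.57 ± 0.06 with epoxomicin (n = 9) and 2.91 ± 0.06 with ONX0914 (n = 9). The spots of any 2 of these contrasts did not overlap, the closest being 3.29 at most with MG132 and 3.46 at least with epoxomicin.

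*Ifi47*, a GKS effector, showed the smallest differences of all members with the software's background subtraction. Its signal of 2846 ± 285 on the DMSO array compared with 14111 ± 1411 on the MG132, 21120.3 ± 2112 on the epoxomicin and 9120.3 ± 912 on the ONX0914 array, corresponding to 5.64-fold, 7.30-fold and 3.29-fold. *Tgtp2* had signals of 5349.9 ± 535, 70229.9 ± 7023, 99395 ± 9940 and 47785 ± 4779 in that order, and was 14.9-fold, 18.3-fold and 9.16-fold higher. A second, faint *Tgtp2* probe (22.1 ± 3.87 with DMSO) gave 23.5-fold, 30.5-fold and 12.5-fold. *Tgtp1* was read by a faint probe as well, with 53.1 ± 6.57, 707 ± 70.8, 1068 ± 106.9 and 391 ± 39.4, and was 15.2-fold, 19.8-fold and 7.56-fold higher. Because the *Tgtp* copies may share a probe's signal, these values cannot be assigned to one copy.

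*Iigp1*, which encodes the best studied effector, read 1059.8 ± 106 on the DMSO array. The readings were 9528 ± 953 under MG132, 16503 ± 1650.3 under epoxomicin and 7357 ± 736 under ONX0914. It was 10.2-fold, 15.3-fold and 7.12-fold higher on this brighter probe. The dimmer probe, named by the same transcript accession, read 127.6 ± 13.2, 6165 ± 617, 10837 ± 1084 and 4677 ± 468, which gave 55.0-fold, 83.5-fold and 37.6-fold. The probes therefore disagreed on the difference from DMSO by 2.40 to 2.45 on the log2 scale, whereas the median disagreement over 2611 genes with 2 probes was between 0.13 and 0.15 and the 90th percentile between 0.42 and 0.61. Between inhibitors the same 2 probes differed by 0.05 at most. The probes thus diverged in contrasts that include the DMSO array, and which parts of the transcript they bind was not tested.

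With the software's background subtraction and the brightest probe of each gene, the largest differences belonged to 3 little-studied genes. *Gm4951* read 471 ± 47.2 under DMSO, 10558 ± 1056 under MG132, 17965.5 ± 1797 under epoxomicin and 9029 ± 903 under ONX0914, or 25.5-fold, 37.5-fold and 19.7-fold. *Gm4841* read 20.2 ± 3.81, 1779 ± 178, 3750.3 ± 375 and 1202 ± 120.2, or 100.1-fold, 182-fold and 61.0-fold. *F830016B08Rik* read 31.0 ± 4.36, 1501 ± 150.1, 2726 ± 273 and 724 ± 72.5, or 55.1-fold, 86.4-fold and 24.0-fold. On the DMSO array both *F830016B08Rik* and *Gm4841* lay near the lowest signal called well above background (14.7), so the sizes of these folds hang on how the background was subtracted. With normexp background correction, the log2 differences of *Gm4841* were 2.94, 3.78 and 2.26 in place of 6.65, 7.51 and 5.93, those of *F830016B08Rik* were 2.70, 3.31 and 1.58 in place of 5.78, 6.43 and 4.58, and those of *Tgtp1* were 1.45, 1.79 and 0.56 in place of 3.92, 4.31 and 2.92. *Tgtp1* with ONX0914 was then below 2-fold. The order of the members changed as well, since *Gm4841* and *F830016B08Rik* then lay below *Tgtp2* (4.03, 4.36 and 3.31), and *Tgtp1* rather than *Ifi47* (2.52, 2.87 and 1.72) had the smallest differences.

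**Figure D2:**
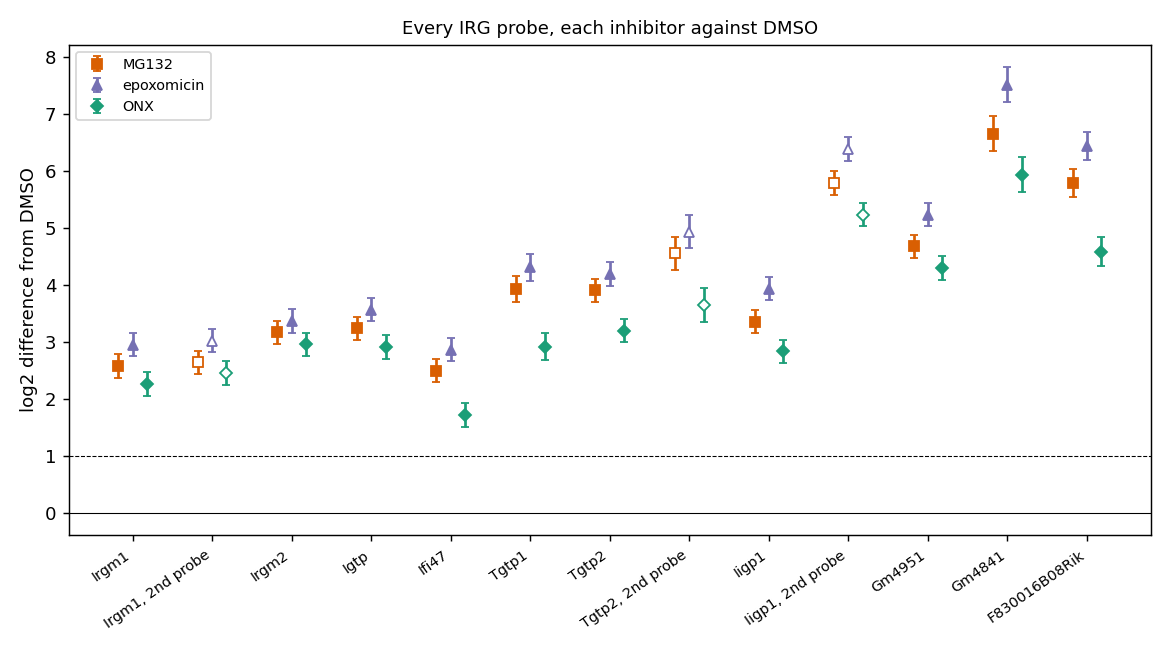
Log2 difference from DMSO (vertical axis) of all 13 probes with each inhibitor; bars are the standard error from the scanner software, open symbols are second probes of a gene, and the dashed line is a 2-fold difference. All points lie above the dashed line, and the *Iigp1* probes are separated by 2.40 to 2.45.

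The inhibitors were compared with each other at the same dose and time, a contrast that had not been used to select the family. This made 3 pairs of compounds with 1 array each, so no test was possible. Epoxomicin exceeded MG132 in all 10 members, by a median of 0.38 on the log2 scale (0.19 to 0.86), while 50% of 13634 genes compared were above 0. No member reached a 2-fold difference in this contrast, which 0.785% of genes did. ONX0914 was below MG132 in all 10 members, by a median of -0.61 (-1.20 to -0.21), where 47.4% of 13705 genes were below 0. At least 2-fold lower were *F830016B08Rik* (-1.20) and *Tgtp1* (-1.0), or 2 of 10 members, against 3.05% of all genes. *Tgtp1* lay at the threshold and was short of it with normexp (-0.88), without scaling (-0.85), with scaling to the median (-0.91), with quantile normalization (-0.99) and in the authors' value table (-0.99). ONX0914 was below epoxomicin in all 10 as well, by a median of -1.05 (-1.85 to -0.40), where 45.3% of 13795 genes were below 0. Here 5 members were at least 2-fold lower, *F830016B08Rik* (-1.85), *Gm4841* (-1.58), *Tgtp1* (-1.39), *Ifi47* (-1.15) and *Iigp1* (-1.10), against 4.38% of all genes. *Tgtp2* lay just short of the threshold (-0.995). It passed with normexp (-1.05), without scaling (-1.06), with quantile normalization (-1.03), with the 75th percentile of detected probes (-1.01) and with the mean over probes (-1.14). With scaling to the median (-0.93) and in the authors' value table (-0.985) it did not.

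These directions were shared by other induced genes. Among genes outside the family that were at least 2-fold higher with both MG132 and epoxomicin, epoxomicin exceeded MG132 in 75.3% of 813 (median 0.16), and in 86.4% of the 81 that were at least 8-fold higher (median 0.44). ONX0914 exceeded MG132 in 2.1% of 811 of the first set (median -0.79) and in 5% of 80 of the second (median -1.47), and it exceeded epoxomicin in 2.47% (median -0.94) and 1.25% (median -1.76). At least 2-fold lower with ONX0914 than with MG132 were 261 of the 811 and 53 of the 80, and than with epoxomicin 376 and 63. The order of the inhibitors was thus also seen outside the family. These sets were chosen on MG132 and epoxomicin without a condition on ONX0914, which by itself favors lower ONX0914 values. How far this choice produced the ONX0914 shares was not tested.

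The standard error of such a difference was between 0.20 and 0.21. Taken singly, the difference exceeded 2 standard errors for 4 members between epoxomicin and MG132, for 6 between ONX0914 and MG132 and for 9 between ONX0914 and epoxomicin. The same count was not made over all genes, so nothing particular to the family is read from it. *Irgm2* stayed within 2 standard errors in all of these pairs (0.19, -0.21 and -0.40). For *Igtp*, spots could be compared directly, and the log2 difference was 0.33 ± 0.06 between epoxomicin and MG132 (SD, n = 8 spots), -0.33 ± 0.03 between ONX0914 and MG132 (n = 8) and -0.65 ± 0.06 between ONX0914 and epoxomicin (n = 10). No spot went against the direction of its mean.

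The GMS regulators and the GKS effectors occupied separate ranges in both contrasts with ONX0914. Compared with MG132, ONX0914 gave -0.33 to -0.21 in the 3 regulators and -1.20 to -0.38 in the 7 effectors. Compared with epoxomicin, it gave -0.69 to -0.40 in the regulators and -1.85 to -0.93 in the effectors. The gap between the nearest members of the classes was smaller than 2 standard errors in both contrasts, and the separation was noticed after the values had been seen. Some further IRG genes, not assigned to a class here, fell in these gaps or among the regulators. Against MG132 and epoxomicin, ONX0914 gave -0.36 and -0.74 in *Gm12250*, -0.37 and -0.60 in *Gm5431*, and -0.74 and -0.83 in *9930111J21Rik1*. *Gm12185* (-0.96 and -1.37) and *9930111J21Rik2* (-0.63 and -1.20) lay within the effector ranges. How often such a separation occurs among all genes was not counted. Between epoxomicin and MG132 the classes overlapped. In that contrast the members split by chromosome instead, with 0.56 to 0.86 in the 4 genes on chromosome 18 and 0.19 to 0.38 in the 6 genes on chromosome 11, again a description made after the values had been seen. Further IRG genes on chromosome 11 did not all keep this split, since *9930111J21Rik2* gave 0.57 and *Gm12185* gave 0.41. *Gm12250* (0.38), *Gm5431* (0.23) and *9930111J21Rik1* (0.09) did not exceed the chromosome 11 members.

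**Figure D3:**
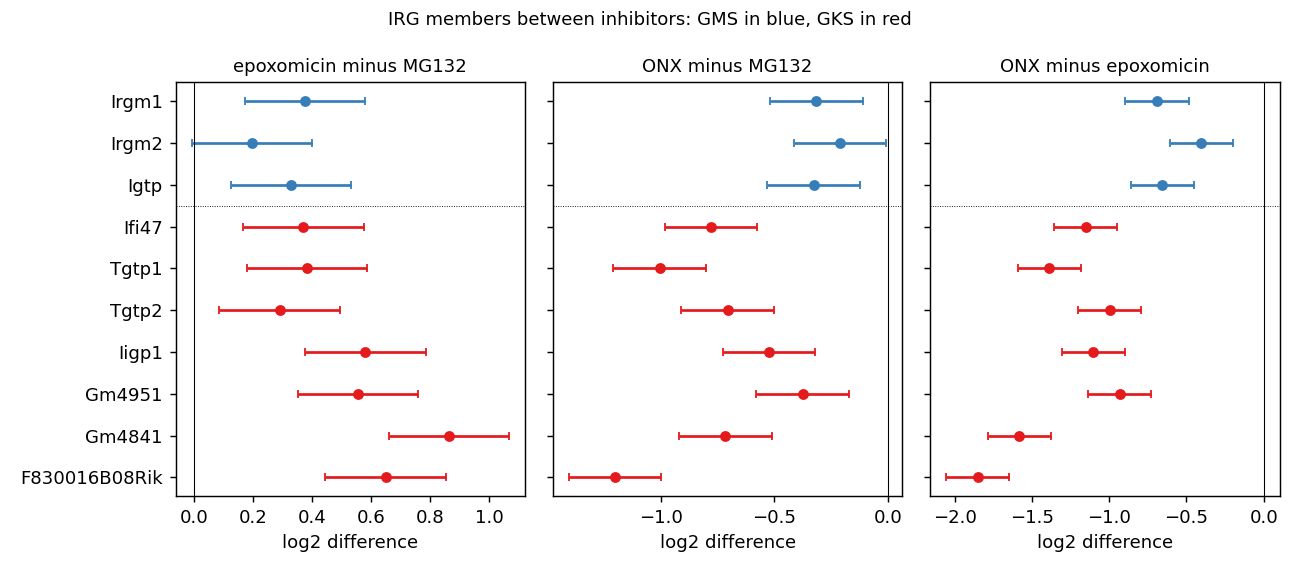
Log2 difference between each pair of inhibitors (horizontal axes) for the 10 members, with GMS regulators in blue and GKS effectors in red; bars are the standard error from the scanner software. All members lie right of 0 in the left panel and left of 0 in the others, and the regulators lie closest to 0 in both ONX0914 panels.

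The response to ONX0914 was also set against that to the other inhibitors within each gene. The log2 difference of ONX0914 from DMSO was between 68.8% (*Ifi47*) and 93.4% (*Irgm2*) of that of MG132, with a median of 86.1% over the members. Over the 738 other genes at least 2-fold higher with MG132 and with epoxomicin, the median was 53.9%, and over the 72 that were at least 8-fold higher it was 65.5%. These percentages share the DMSO array. The members were selected for increases that included ONX0914 and the other genes without regard to it, so the comparison is descriptive.

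By position, the members formed 3 stretches in the RefSeq gene order. The stretches *Irgm1*, *Tgtp1*, *Tgtp2*, *Ifi47* and *Igtp*, *Irgm2* lie on chromosome 11, and *Gm4951*, *Gm4841*, *F830016B08Rik*, *Iigp1* lie side by side on chromosome 18. The median difference was 3.20, 3.47 and 2.91 with MG132, epoxomicin and ONX0914 in the 6 genes on chromosome 11, and 5.23, 5.83 and 4.44 in the 4 genes on chromosome 18. With normexp the medians were 2.78, 3.06 and 2.505 on chromosome 11 and 3.00, 3.73 and 2.39 on chromosome 18, so that most of the gap was lost and its direction turned for ONX0914. Of the 5 protein-coding genes on either side of each stretch, 30 in all, 22 could be compared. At least 2-fold higher with any inhibitor were 7 of them, where 10.5% of 14273 genes over the whole array were. *Gm12250*, the gene next to *Igtp*, is an IRG gene itself. *Smim3*, next to *Iigp1*, was higher by 1.59, 1.47 and 1.22. The other 5, *Olfr1396*, *Olfr56*, *Olfr1395*, *Olfr1394* and *Btnl9*, follow *Ifi47* in a row and were faint. *Olfr1396* read 26.5 under DMSO, 95.5 under MG132, 169.8 under epoxomicin and 55.3 under ONX0914, while *Olfr56* and *Btnl9* were not well above background with DMSO or ONX0914 and *Olfr1394* was not with MG132. *Synpo* was the 1 flanking gene at least 2-fold lower, with -1.09 under epoxomicin. The 5 genes before *Irgm1* showed no difference above 0.48 where they could be compared.

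**Figure D4:**
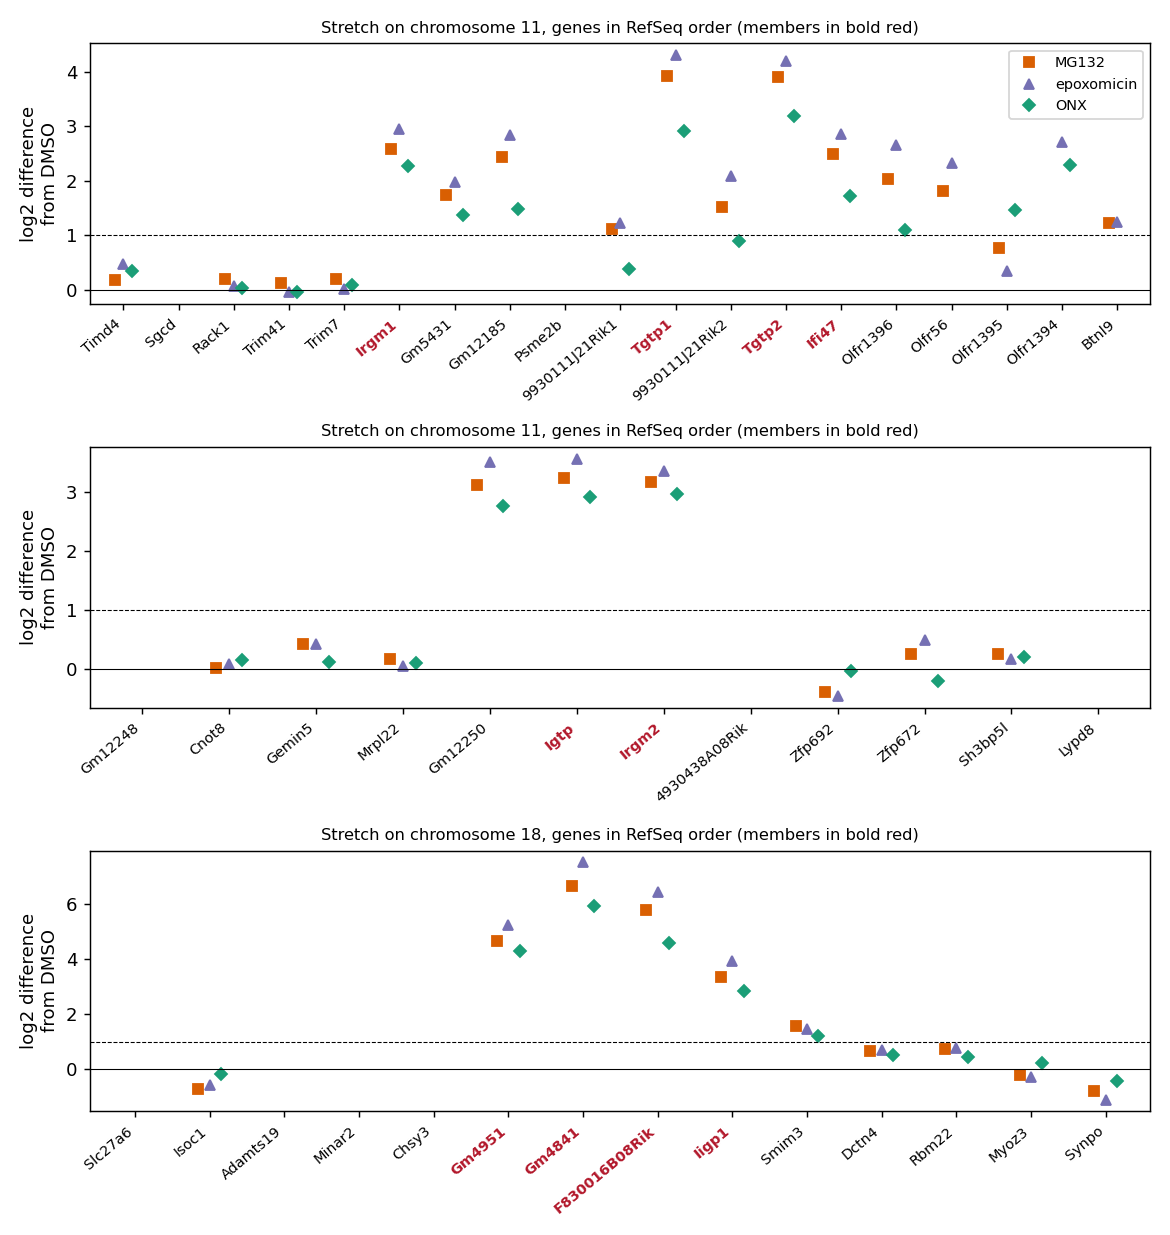
Log2 difference from DMSO (vertical axis) along the genes of each stretch and 5 genes on either side, in order and not to distance, with members in bold red; a gene without points had no named probe or could not be compared. Genes above the dashed 2-fold line are the members, the IRG genes between or beside them (*Gm12250* next to *Igtp*), *Smim3* next to *Iigp1*, and faint genes that follow *Ifi47*.

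Further genes of the family were on the array. Of 7 with a probe, 6 could be compared, and 5 were at least 2-fold higher with MG132 and with epoxomicin and 3 with ONX0914. *Gm12250* read 142 under DMSO, 1087 under MG132, 1639 under epoxomicin and 938 under ONX0914, and was higher by 3.12, 3.504 and 2.76 on the log2 scale. *Gm5431* was higher by 1.75, 1.98 and 1.38. *Gm12185*, which carries the joined GAS and ISRE pattern, was not well above background with DMSO and was at least 5.43-fold, 7.21-fold and 2.79-fold higher. *9930111J21Rik1* and *9930111J21Rik2* were higher by 1.12 and 1.53 with MG132, 1.22 and 2.09 with epoxomicin and 0.38 and 0.89 with ONX0914. A second, dimmer probe of *9930111J21Rik1* gave 2.40, 2.71 and 1.72, above 2-fold with every inhibitor. *Irgq*, which lies apart from the others on chromosome 7 and had neither pattern in its promoter, gave -0.20, -0.45 and 0.08. Neither pattern was present in the promoters of *Gm5431*, *9930111J21Rik2* and the member *Ifi47* either, although these genes were higher with every inhibitor. A link between the patterns and the differences was not tested. *Irgc1* was not well above background on any array.

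The interferon-γ pathway upstream of the family was examined next. Of 14 genes compared, 7 were at least 2-fold higher with MG132 and 7 with epoxomicin, 5 with ONX0914, and 2, 2 and 0 were at least 2-fold lower. *Ifng*, which encodes the ligand, was not well above background on any array (4.10 to 5.33). The receptor chains gave negative values, with -1.15, -1.14 and -0.69 for *Ifngr1* and -1.71, -2.28 and -0.77 for *Ifngr2*. The receptor kinases gave 0.05, 0.26 and -0.02 for *Jak1* and 0.89, 0.84 and 0.52 for *Jak2*. *Irf1*, a transcription factor that acts on IRG promoters, read 9157 under DMSO, 45798 under MG132, 64688 under epoxomicin and 55069.6 under ONX0914, and was higher by 2.51, 2.80 and 2.63. Unlike in the members, ONX0914 was above MG132 for *Irf1*, but only by 0.12 on the log2 scale. The standard errors of the members' differences between inhibitors were at least 0.20, so this direction was not resolved. *Stat2*, part of a complex that binds ISRE, was higher by 2.31, 2.44 and 1.49. *Irf8*, a macrophage factor, gave 1.20, 1.54 and 0.79. The feedback inhibitors *Socs1* (3.06, 3.33 and 4.43) and *Socs3* (2.26, 2.76 and 3.09) were highest with ONX0914, unlike any IRG member.

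Guanylate-binding proteins (GBPs) are interferon-induced GTPases that work with IRG proteins at the vacuole. Of 10 *Gbp* genes compared, 9 were at least 2-fold higher with all 3 inhibitors, with medians of 3.03, 3.44 and 2.12. *Gbp10* gave 0.95, 1.16 and 0.72. *Gbp2b* was highest, with 3.94, 4.41 and 4.03, followed in its ONX0914 value by *Gbp5* (3.66, 4.10 and 3.11) and *Gbp2* (3.45, 3.81 and 3.04). *Gbp4*, *Gbp6*, *Gbp3*, *Gbp9*, *Gbp7* and *Gbp8* lay between 2.56 and 3.24 with MG132 and between 1.82 and 2.75 with ONX0914. The autophagy conjugation proteins, which help load IRG and GBP proteins onto vacuoles, showed a different picture. Of 12 such genes, *Gabarapl1*, a member of the ATG8 family, was at least 2-fold higher with all inhibitors (1.38, 1.33 and 1.13), *Atg12* with 2 of them (1.096, 1.27 and 0.70), and the medians were -0.07, -0.04 and 0.09. Of 6 genes for ubiquitin and its readers at the vacuole, *Sqstm1*, encoding the receptor p62, was higher by 2.60, 2.35 and 1.97, while *Traf6* and *Trim21* passed 2-fold with MG132 and epoxomicin alone.

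**Figure D5:**
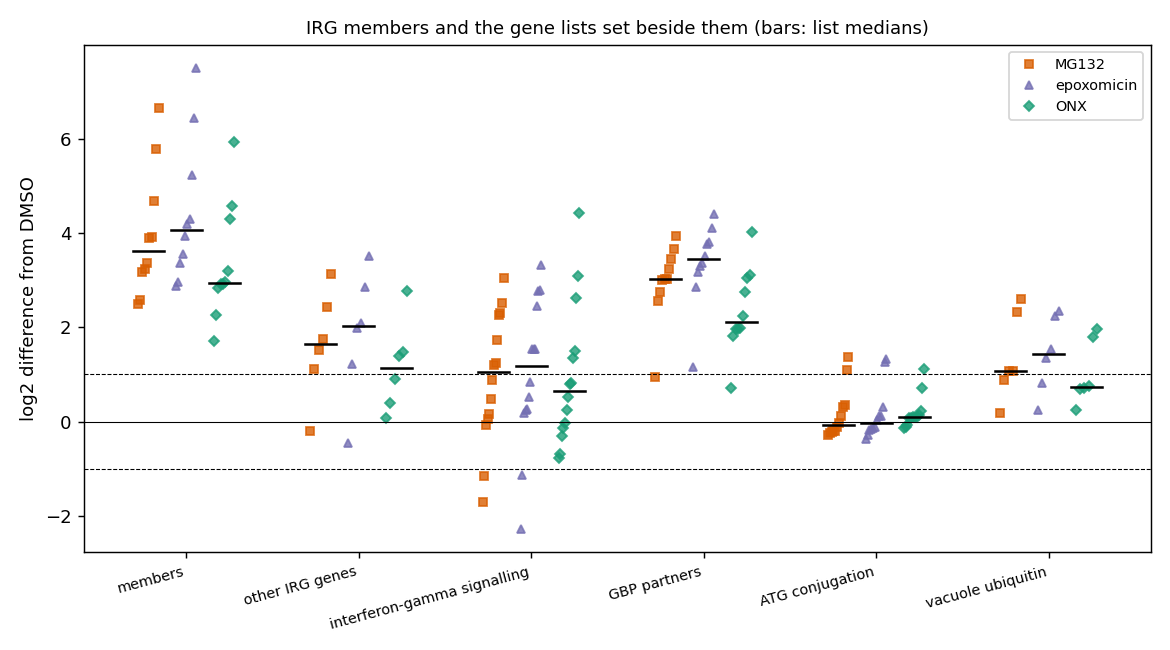
Log2 difference from DMSO (vertical axis) of the IRG members and of the gene lists described in the text, 1 point per gene and inhibitor, with black bars at the medians and dashed lines at 2-fold. The members and the GBP genes lie highest, and the autophagy conjugation genes center on 0.

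Among 12719 other genes measured on all 4 arrays, the 5 most like the members were found by the root-mean-square distance of their 3 differences from the members' medians. *Gbp5* was closest, with a distance of 0.10 on the log2 scale, followed by *Cish*, a cytokine-signaling inhibitor (0.14), *Gbp2* (0.19), the cytokine gene *Il6* (0.21) and *Oasl1*, an interferon-induced gene (0.27). *Cish* was higher by 3.85, 4.15 and 2.95, *Il6* by 3.98, 4.04 and 3.06 and *Oasl1* by 3.89, 4.31 and 2.63. These genes are like the median and not like each member. While 2, 4 and 4 other genes lay closer to it than *Iigp1*, *Tgtp1* and *Tgtp2*, 2087 lay closer than *Gm4841* and 267 closer than *F830016B08Rik*. The likeness rests on 4 arrays that share the DMSO sample.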

How the data were processed

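Total RNA of J774.1 cells was hybridized to 4 single-color (Cy3) Agilent arrays of 1 slide. The authors deposited the output of Feature Extraction 10.7.1.1, in which the processed signal is an intensity after background subtraction within the array, with no scaling between arrays. Values on a log2 scale, which the authors deposited in a separate table, served as an alternative. A human design is named in the Methods but a mouse design in the file headers. Probes were therefore named through their transcript accessions and the mouse RefSeq table of GRCm38.p6, which named 26581 of 39429 probes (67.4%), and the coordinates in the files were not used.

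Control spots and outlier spots (159 to 194 per array) were left out, log2 signals were taken relative to the 75th percentile of the array, and spots of a probe were averaged. Where a gene had several probes, the brightest stood for it. Genes entered a comparison when well above background on at least 1 of its arrays. Where a signal was not well above background, the higher of that signal and the lowest signal called so on the array took its place, and the fold is then a lower bound. A gene was counted at a 2-fold difference. With 1 array per condition no test was run, and the number of arrays limits the precision. Standard errors come from the software's error of each spot. Under an alternative, a value counted as moved from 0.0870, the median SD between spots of one probe (0.0615) times the square root of 2.

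The members and the lists were chosen with earlier results of these data known. Genes named are the members, further IRG genes, *Irf1*, *Irf8*, *Jak1*, *Jak2*, *Ifngr1*, *Ifngr2*, *Ifng* and *Socs1*, list genes at least 2-fold from DMSO with all inhibitors, flanking genes so with any, and the 5 genes most like the members. *Gbp10*, *Atg12*, *Traf6*, *Trim21* and the cell type markers were named after their values were seen. Some genes that the rule takes are not reported here. Alternatives were normexp (offset 50, on the median spot brightness), no scaling, scaling to the median or to the 75th percentile of detected probes, quantile normalization, the authors' value table, the mean over probes, signals in place of bounds, a 4-fold threshold and a filter on dim probes. The calculations were tested on simulated data. The software was limma 3.58.1 in R 4.3.3, and numpy 2.4.6, pandas 2.3.3 and matplotlib 3.10.9 in Python 3.11.15.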

Additional observations from a re-analysis of the deposited data

How the results depend on the processing

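All 10 members stayed at least 2-fold higher than DMSO with MG132 and with epoxomicin under every alternative run, and with ONX0914 under every one but normexp, where *Tgtp1* was lower than that (0.56), and the 4-fold threshold, which left out *Ifi47*. No difference of a member changed direction. The size of the median was less stable. Normexp gave medians of 2.93 for MG132, 3.49 for epoxomicin and 2.42 for ONX0914. When outlier spots were left out of the normexp fit, an alternative chosen after seeing the data, it was 3.16, 3.68 and 2.83, and *Gm4841* then gave 4.34, 5.19 and 3.67. With the mean over a gene's probes it was 4.07, 4.43 and 3.19, which includes the second *Iigp1* probe. Without scaling, every difference of MG132 from DMSO fell by 0.19 and every one of epoxomicin from MG132 was 0.21 higher, so that the medians were 3.44 and 0.59, and that of ONX0914 against MG132 was -0.46. With scaling to the median, they were 3.53 for MG132 against DMSO and -0.52 for ONX0914 against MG132. The remaining medians moved by less than the spread between spots. Among the 10 members, regulators and effectors kept separate ranges in both contrasts with ONX0914 under both normexp fits, quantile normalization and the mean over probes. The other alternatives could not test this separation. Leaving out or changing the scaling, and the authors' value table, moved all members by the same amount within a contrast. Signals in place of bounds and the filter on dim probes left the members' values unchanged. Further IRG genes were not included in the comparison of regulators with effectors.

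Each condition had 1 array, so leaving one out gave no value, and faint DMSO signals of *Gm4841*, *F830016B08Rik* and *Tgtp1* limit what can be said of the size of their increases. No paired analysis was possible because each condition had a single array. Naming probes by the file's own gene name was not run, since the files used here have no such column.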
